A study of Mus musculus with 12 samples.

Results

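The interferon-stimulated genes (ISGs) described here are 37 genes that were listed by name and matched to the gene names of an expression table. The table listed 35 of them among its 21878 genes, and 33 were expressed highly enough to be tested among 10675 genes. *Mx1* and *Mx2*, which encode antiviral GTPases, were not analysed here, and *Oas2* and *Oas3* were measured but not tested. RNA was sequenced from mouse alveolar type 2 (AT2) cells, epithelial cells of the alveolus that secrete surfactant, in 4 groups of 3 samples that the submitters call biological replicates. Control mice carried loxP-flanked *Atg5* alleles without Cre (*Atg5* f/f) and received PBS (AT2-PBS) or intratracheal bleomycin (BLM, 2 U/kg), a drug that injures the alveolar epithelium (AT2-BLM). Mice with *Nkx2.1-Cre* and the f/f alleles, which lose *Atg5*, a gene needed to form autophagosomes, received PBS (*Atg5*-/- AT2-PBS) or the same dose of BLM (*Atg5*-/- AT2-BLM). All 4 groups therefore share the f/f alleles, and *Nkx2.1-Cre* is active across the lung epithelium and not in AT2 cells alone. Cells were taken on day 14, a day that the sources do not name for *Atg5*-/- AT2-PBS, and the BLM experiments used male mice of 8 to 12 weeks on a C57BL/6 background. The sort took live EpCAM+ cells that lacked CD31, CD34, CD45, CD24 and Sca-1.

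Interferons are secreted proteins that cells release after sensing viral or misplaced nucleic acid. Type I and type III interferons signal through JAK kinases to a complex that holds STAT2 and IRF9 and binds the interferon-stimulated response element (ISRE) in front of its target genes. Interferon gamma acts through STAT dimers that bind the gamma-activated site (GAS), and many genes answer to both routes. The products block viral entry, translation and replication, sense RNA and DNA, or feed back on the pathway, and the airway and alveolar epithelium is among the tissues that respond to them.

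Several libraries stood apart before any comparison. Of 8 AT2 markers, 7 were above 1 FPKM (a fragment count corrected for the length of the transcript and the size of the library) in each of the 12 samples, while *Sftpc* was listed at 0 in all but AT2-BLM replicate 2, so a 0 in this table can be a failed estimate. The whole-gene value of *Atg5* ran from 6.72 to 10.1 FPKM in *Atg5*-/- AT2-PBS and from 6.01 to 12.5 FPKM in AT2-PBS and does not show the deletion. Markers of cells that the sort should have removed were present. The FPKM of 8 leukocyte markers summed to between 11.7 and 51.0 in AT2-PBS, between 49.3 and 99.7 in AT2-BLM, between 692 and 895 in *Atg5*-/- AT2-PBS and between 42.6 and 200 in *Atg5*-/- AT2-BLM. *Ptprc*, which encodes CD45, was at 7.54 to 8.46 FPKM in *Atg5*-/- AT2-PBS and at most 2.64 FPKM elsewhere. Transcripts of 6 liver genes summed to 406 FPKM in AT2-PBS replicate 1 and to 5.26 and 3.34 FPKM in replicates 2 and 3, against 1490 to 2550 FPKM in *Atg5*-/- AT2-PBS. *Ly6a*, which encodes Sca-1 and is itself induced by interferons, was at 7.36 to 16.8 FPKM in AT2-PBS and at 63.1 to 984 FPKM in the other 9 samples.

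The promoters of the ISGs show what they have in common in sequence. A promoter window, from 250 bases before to 50 bases after the transcription start, was found for 29 of the 37 genes in RefSeq (GRCm38.p6). The core of the ISRE was searched as GAAA, any 2 bases and GAAA, and that of the GAS as TTC, any 3 bases and GAA, on both strands, so the former reads TTTC, any 2 bases and TTTC where it lies on the opposite strand. The ISRE core was found in 16 of these 29 genes (55.2%) and in 3.99% of 27025 genes with a window. The GAS core was found in 9 of them (31.0%) and in 9.55% of all genes. Both cores were present in 5 ISGs and neither in 9, among them *Irf7*, *Irf9*, *Oasl1*, *Oasl2* and *Cmpk2*, which says only that these letters are not in these windows. A match is a description of the sequence and not of binding. *Dhx58*, *Iigp1*, *Mx1*, *Mx2*, *Oas2*, *Parp14*, *Usp18* and *Zbp1* had no window.

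The windows below were chosen because their genes carry an ISRE core upstream of the start and come from several of the families described here, with ISRE cores in capitals. *Isg15*, *Bst2*, *Oas1a* and *Irgm1* have cores that overlap by sharing a GAAA, and in *Bst2* a GAS core overlaps the ISRE core as well. *Igtp* and *Irgm2*, neighbours on chromosome 11, have nearly the same window. *Irf1* is shown last for contrast, with its GAS core in capitals, since its window holds no ISRE core. The coordinates, given before the sequences, are those of GRCm38.p6, and each sequence is written 5′ to 3′ on the strand of its gene. They are chr4:156200850-156200921 (minus strand) for *Isg15*, chr19:34640760-34640838 (plus) for *Ifit1*, chr19:34583348-34583441 (plus) for *Ifit3*, chr5:120907526-120907570 (minus) for *Oas1a*, chr8:71537562-71537627 (minus) for *Bst2* and chr12:26456538-26456597 (minus) for *Rsad2*. The others are chr3:142620579-142620638 (plus) for *Gbp2*, chr11:48871421-48871475 (minus) for *Irgm1*, chr11:58199497-58199555 (plus) for *Igtp*, chr11:58214888-58214947 (plus) for *Irgm2* and chr11:53769899-53769957 (plus) for *Irf1*.
Isg15: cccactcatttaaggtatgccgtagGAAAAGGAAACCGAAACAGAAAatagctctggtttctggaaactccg
Ifit1: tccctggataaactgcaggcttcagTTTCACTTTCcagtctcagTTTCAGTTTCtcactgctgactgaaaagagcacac
Ifit3: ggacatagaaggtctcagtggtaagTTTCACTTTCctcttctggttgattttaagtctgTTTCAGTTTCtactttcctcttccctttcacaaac
Oas1a: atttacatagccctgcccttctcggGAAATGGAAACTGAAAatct
Bst2: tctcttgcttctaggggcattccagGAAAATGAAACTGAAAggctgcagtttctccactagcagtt
Rsad2: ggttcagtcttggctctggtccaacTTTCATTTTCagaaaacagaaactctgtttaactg
Gbp2: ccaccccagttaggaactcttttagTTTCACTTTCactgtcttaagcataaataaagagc
Irgm1: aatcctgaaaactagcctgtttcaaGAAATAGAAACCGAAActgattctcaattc
Igtp: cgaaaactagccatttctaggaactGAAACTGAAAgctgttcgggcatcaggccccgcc
Irgm2: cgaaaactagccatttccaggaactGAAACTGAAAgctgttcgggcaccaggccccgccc
Irf1: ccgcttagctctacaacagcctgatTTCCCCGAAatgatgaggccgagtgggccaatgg

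Counted from the first base of the match, 20 of the 24 ISRE cores lay within 160 bases before the start and 3 lay behind it. Overlapping cores were counted singly. The windows reached only 250 bases before the start, and positions over all promoters were not computed, so this count has no background. The core nearest the start on its upstream side was that of *Oas1a*, 14 bases before it, and the farthest shown above was that of *Ifit3*, 156 bases before it.

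**Figure D1:**
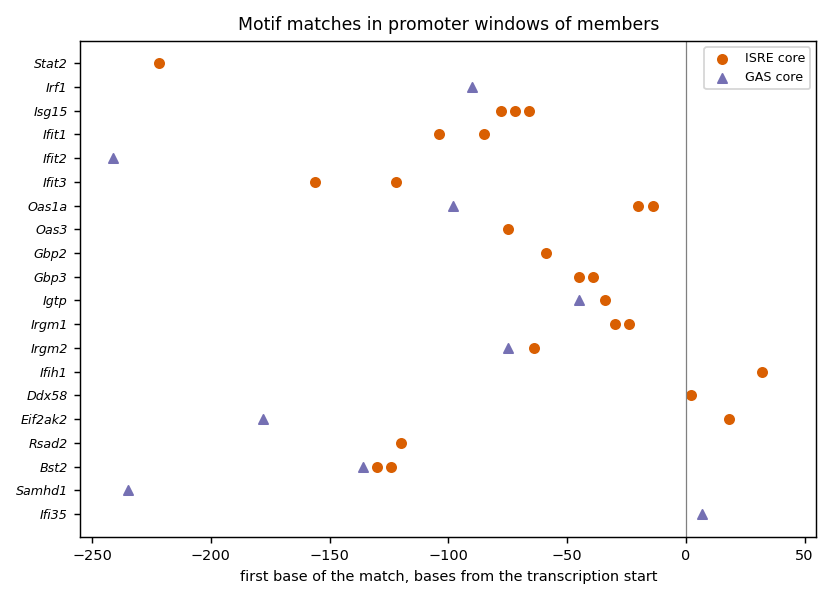
Position of each ISRE core (circles) and GAS core (triangles) in the promoter windows of the ISGs that hold one, with bases from the transcription start on the horizontal axis and 1 gene a row. Of 24 ISRE cores in these windows, which reach 250 bases before the start, 20 lie within 160 bases before it.

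The ISGs also share annotation and position. The table's gene ontology terms gave defense response to virus for 21 of the 35 listed ISGs (60.0%) and for 0.75% of all genes, and cellular response to interferon-beta for 10 (28.6%) and 0.178%. In mm9, 20 of the 37 genes lay in 9 clusters with gaps under 1 Mb, such as *Ifit2*, *Ifit3* and *Ifit1* (chromosome 19, 34625184 to 34724499), *Oas2*, *Oas3* and *Oas1a* (chromosome 5, 121180342 to 121357536) and *Rsad2* and *Cmpk2* (chromosome 12, 27127618 to 27164700). Neighbours of this kind are close relatives in part, so reads may have been shared between *Ifit3* and *Ifit3b*, between *Oas1a* and *Oas1g*, and within the *Gbp* and *Irgm* families.

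With BLM, most ISGs were called higher in AT2 cells. A single limma fit to log2(FPKM + 1) of the 12 samples gave the changes, on a scale that understates those of genes with low FPKM. Genes were called where p was under 0.05 before adjustment and the fold change was 1.4 or more, and these p-values measure the spread among these samples only. Between AT2-BLM and AT2-PBS, 26 of 33 ISGs were called higher and 0 lower, where 28.4% of all tested genes were called and 20.6% were called higher. Their median log2 fold change was 1.55, between 0.14 for *Trim25* and 3.49 for *Isg15*, beside 0.17 over all genes, and 15 had a Benjamini-Hochberg adjusted p under 0.05 from limma, against 13.1% of all genes that were called higher with such a p. For 29 of the 33, each AT2-BLM sample was above each AT2-PBS sample, against 28.9% of all genes. Quantile normalization, which moved the median of all genes to -0.02, left the median of the ISGs at 1.33 with 18 called. Without AT2-BLM replicate 1, the sample of that group with the highest value for 28 of 35 ISGs, 16 were called. The share of all genes that were highest in that sample was not computed. Of 8 leukocyte markers, 7 were called higher in this comparison, but 0 had an adjusted p under 0.05 from limma. Of 7 macrophage markers, 2 were called higher, 1 of them with such an adjusted p. Of 4 tested lymphocyte markers, 2 were called higher and 0 had such an adjusted p. The part of these cells in the ISG values was not tested in this comparison. In such bulk samples, more cells of a type and more RNA per cell cannot be told apart.

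With *Atg5* loss and PBS, ISGs were higher than in AT2-PBS by a median log2 fold change of 2.04, beside 0.02 over all genes. Of 33, 32 were called higher and 0 lower, where 19.3% of all genes were called and 14.1% were called higher, and 24 had an adjusted p under 0.05 from limma, against 9.9% of all genes. Only *Irf1* was not called. *Ifit2* passed the filter for testing mainly through *Atg5*-/- AT2-PBS, so its rise is not independent of the filter in any count of this comparison. The 3 libraries were unlike each other. All 35 ISGs were lowest in *Atg5*-/- AT2-PBS replicate 3, and for the 34 that were above 0 there, the mean of replicates 1 and 2 was a median of 6.72 times its value. Replicates 1 and 2 were above each AT2-PBS sample for 35 of 35 ISGs and replicate 3 for 26. For these counts by replicate the share of all genes was not computed, so they have no background. All 3 replicates were above each AT2-PBS sample for 25 of the 33 tested, against 18.1% of all genes. Without replicate 3, the median log2 fold change was 2.81 with 32 called, and without replicate 2 it was 1.59 with 25 called. Quantile normalization gave a median of 1.77 for the ISGs and -0.17 for all genes. Leukocyte and macrophage markers were high in all 3. The leukocyte sum was 800, 895 and 692 FPKM and the sum of 7 macrophage markers 362, 368 and 374 FPKM in replicates 1 to 3, and all 8 and all 7 were called higher than in AT2-PBS. All 4 tested lymphocyte markers, 4 fibroblast markers and 6 liver transcripts were called higher as well. Of 7 tested AT2 markers, 6 had a negative log2 fold change, with 3 called lower and 1 called higher. All 4 epithelial markers had a negative one, with 2 called lower. Of these calls, 1 in the AT2 list and 0 in the epithelial list had an adjusted p under 0.05 from limma. Some lists set replicate 3 apart, since endothelial markers summed to 3.25, 10.4 and 29 FPKM and *Cd79a*, a marker of B cells, measured 5.62, 6.43 and 26.5 FPKM. Of 4 markers of plasmacytoid dendritic cells, a leukocyte that makes much interferon, *Siglech* was listed at 0 throughout AT2-PBS but measured 0.467, 0.0958 and 0.0967 FPKM with *Atg5* loss. *Cox6a2*, the 1 that was tested, was not called. It ran from 159 to 244 FPKM with *Atg5* loss, against 185 to 290 FPKM in AT2-PBS. Its level was that high where *Siglech* was listed at 0, so it cannot be read as the number of these cells. *Ccr9* ran from 0 to 0.233 FPKM in AT2-PBS and from 0.0967 to 0.663 FPKM with *Atg5* loss. *Tcf4* ran from 0.182 to 0.366 FPKM and from 0.278 to 0.327 FPKM in these groups. The part of these cells in the ISG values was not tested.

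No ISG was called higher with BLM in *Atg5*-/- AT2 cells. Against *Atg5*-/- AT2-PBS, 0 of 33 were called higher and 14 lower, where 18.4% of all genes were called and 10.7% were called lower. The median log2 fold change was -1.10, beside 0.06 over all genes, and *Trim25* and *Ifit2* alone had an adjusted p under 0.05 from limma, against 6.25% of all genes called lower with such a p. These 2 were also the ISGs whose *Atg5*-/- AT2-BLM samples were all below *Atg5*-/- AT2-PBS, against 11.8% of all genes. *Ifit2* passed the filter for testing through *Atg5*-/- AT2-PBS replicates 1 and 2 (2.71 and 7.83 FPKM) and AT2-BLM replicate 1 (1.06 FPKM). Its fall from *Atg5*-/- AT2-PBS is therefore not independent of the filter. The count of 14 rested on single libraries. It was 31 without *Atg5*-/- AT2-PBS replicate 3, 6 without replicate 1 and 4 without replicate 2 of that group, and 8 and 7 without *Atg5*-/- AT2-BLM replicates 2 and 3. *Ifit3*, *Oasl1*, *Rsad2* and *Trim25* were called whichever sample of these 2 groups was left out, and *Ifit2* fell under the filter for testing without *Atg5*-/- AT2-PBS replicate 1 or 2. All 8 leukocyte markers and all 7 macrophage markers were called lower in this comparison, and their part in the fall was not tested. Within *Atg5*-/- AT2-BLM, replicate 1 had the lowest value for 8 of 8 leukocyte markers and the highest for 24 of 35 ISGs. The shares of all genes that were lowest or highest in it were not computed. The *Atg5*-/- AT2-PBS samples serve in both of these comparisons, so the rise with *Atg5* loss and the fall with BLM are not independent of each other.

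No ISG was called with *Atg5* loss during BLM. When *Atg5*-/- AT2-BLM was compared with AT2-BLM by limma, of 33 tested 0 were called and 0 had an unadjusted p under 0.05, where 5.16% of all genes were called. The log2 fold changes lay between -1.18 for *Ifit3* and 0.15 for *Parp14* with a median of -0.44, beside -0.05 over all genes, and 31 of 33 were negative. For 8 of 33, among them *Ifit1*, *Ifit2*, *Ifit3*, *Usp18* and *Rsad2*, each *Atg5*-/- AT2-BLM sample was below each AT2-BLM sample, against 8.49% of all genes. A fit of only these 2 groups called 6 lower. With 3 samples in each group, the smallest two-sided p of an exact permutation test is 0.1. In *Atg5*-/- AT2-BLM replicates 1 to 3, 33, 30 and 32 of 35 ISGs were above each AT2-PBS sample. These groups were not compared by limma and the share of all genes was not computed, so the counts have no background.

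**Figure D2:**
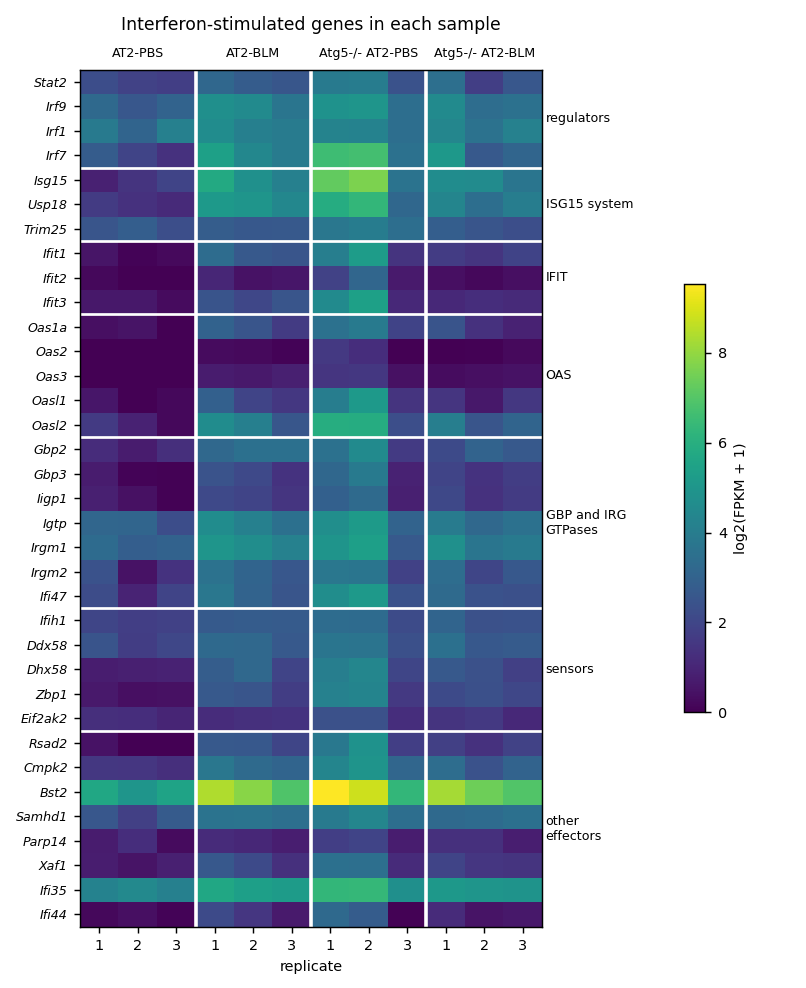
Log2(FPKM + 1) of the 35 listed ISGs (rows, by role) in the 12 samples (columns, by group and replicate), with brighter colour for higher values. AT2-PBS is darkest, *Atg5*-/- AT2-PBS replicates 1 and 2 are brightest for nearly all rows, and replicate 3 of that group is lower than both in 35 of 35 rows.

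**Figure D3:**
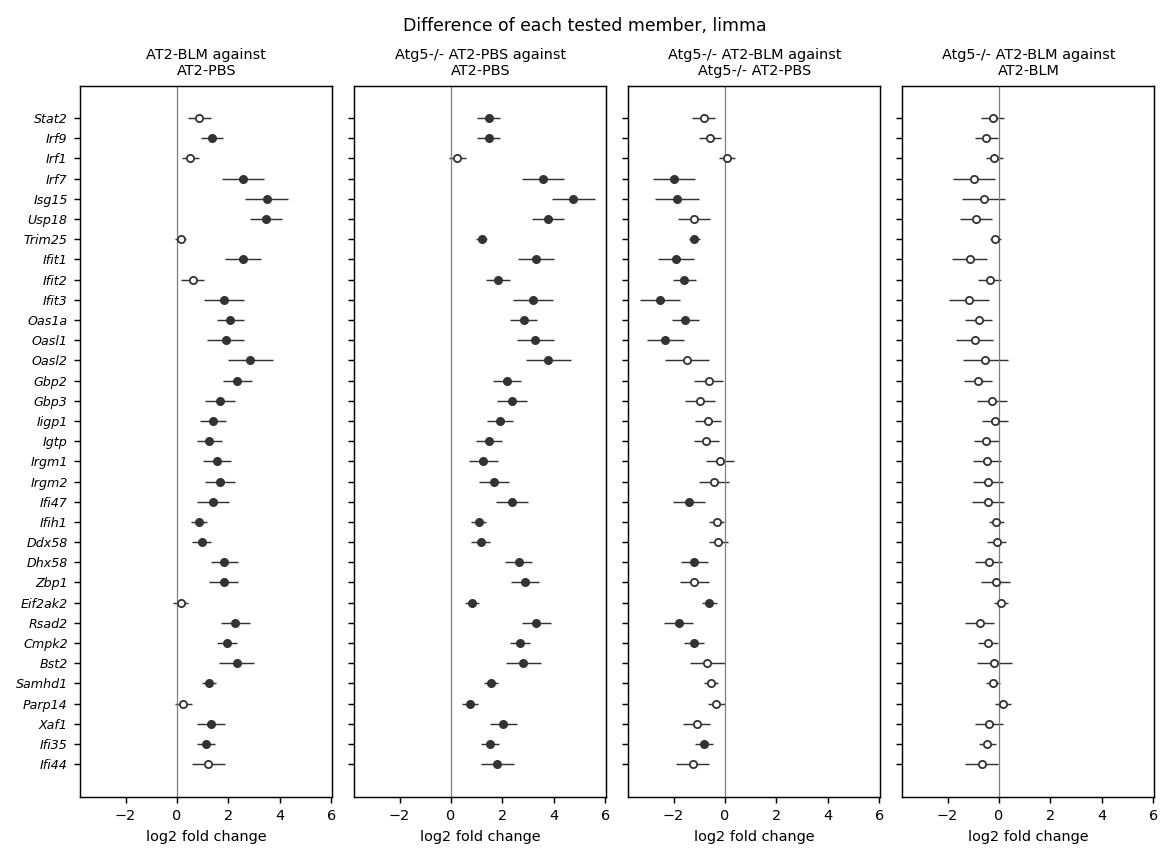
Log2 fold change of the 33 tested ISGs from limma (points) with the standard error (bars) in 4 comparisons. Filled points were called at the study's criterion, which was 26, 32, 14 and 0 genes from left to right, and open points were not.

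The change with BLM was lower in *Atg5*-/- AT2 cells than in AT2 cells for each tested ISG. The difference (BLM effect in *Atg5*-/- AT2 minus BLM effect in AT2, an interaction term in the same limma fit) was negative for 33 of 33 ISGs, with a median of -2.48 beside -0.09 over all genes. Of 33, 30 were called and 15 had an adjusted p under 0.05 from limma, where 20.2% of all genes were called, 15.2% were called negative and 7.11% were called negative with such an adjusted p. *Irf1*, *Eif2ak2* and *Parp14* were not called. *Ifit2*, which was called, had passed the filter for testing mainly through *Atg5*-/- AT2-PBS, so its difference is not independent of the filter. Leaving out single samples gave 24 to 32 calls. The median log2 fold change with *Atg5* loss was 2.04 with PBS and -0.44 during BLM, so the difference rests mostly on the PBS groups. All 8 leukocyte and all 7 macrophage markers had a called negative difference as well, and their part was not tested.

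Among the regulators, *Irf7* moved most. *Irf7*, the transcription factor that amplifies type I interferon production, measured 5.79, 2.88 and 1.57 FPKM in replicates 1 to 3 of AT2-PBS, 41.8, 20.1 and 14.7 in AT2-BLM, 93.6, 103 and 10.9 in *Atg5*-/- AT2-PBS and 33.3, 5.35 and 7.65 in *Atg5*-/- AT2-BLM. Each AT2-BLM and each *Atg5*-/- AT2-PBS sample was above AT2-PBS, while the *Atg5*-/- AT2-BLM range overlapped all 3 other groups. Its log2 fold change was 2.57 with BLM (standard error 0.81, adjusted p = 0.0475 from limma) and 3.59 with *Atg5* loss and PBS (standard error 0.81, adjusted p = 0.0107 from limma). With BLM in *Atg5*-/- AT2 cells it fell by 1.99 on the log2 scale, a call that did not pass the adjustment (adjusted p = 0.174 from limma).

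*Irf9* and *Stat2*, which encode DNA-binding and activating parts of the complex at the ISRE, moved less. *Irf9* measured 8.70, 5.01 and 7.27 FPKM in AT2-PBS, 26, 22.5 and 12.1 in AT2-BLM, 27.9, 30.7 and 9.95 in *Atg5*-/- AT2-PBS and 22.4, 9.73 and 10.8 in *Atg5*-/- AT2-BLM. All 9 samples of the other groups were above the 3 AT2-PBS samples, and the log2 fold change was 1.37 with BLM (adjusted p = 0.0455 from limma) and 1.46 with *Atg5* loss and PBS (adjusted p = 0.0464 from limma). *Stat2* measured 3.82, 2.67 and 2.39 FPKM in AT2-PBS, 8.05, 5.90 and 4.93 in AT2-BLM, 14, 14.9 and 4.29 in *Atg5*-/- AT2-PBS and 10.1, 2.41 and 4.95 in *Atg5*-/- AT2-BLM. It was called with *Atg5* loss and PBS (log2 fold change 1.46) and not with BLM (0.87), although AT2-BLM did not overlap AT2-PBS. *Irf1*, a factor that interferon gamma induces, was called in no comparison. Its values were 14.3, 7.53 and 16.7 FPKM in AT2-PBS, 24.0, 16.5 and 14.6 in AT2-BLM, 18.1, 17.9 and 9.83 in *Atg5*-/- AT2-PBS and 19.8, 11.1 and 17.5 in *Atg5*-/- AT2-BLM. All 4 ranges overlapped, and its log2 fold changes lay between -0.18 and 0.52 in the 4 pairwise comparisons.

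In the ISG15 system, the modifier and the enzyme that removes it were both called higher with BLM and with *Atg5* loss and PBS. *Isg15*, a ubiquitin-like protein that is attached to other proteins, had the largest change of all ISGs. It measured 0.83, 1.67 and 2.92 FPKM in AT2-PBS, 54.5, 26.9 and 16.7 in AT2-BLM, 151, 202 and 11.4 in *Atg5*-/- AT2-PBS and 23.8, 23.4 and 12.0 in *Atg5*-/- AT2-BLM. No sample of the other 3 groups fell into the AT2-PBS range, and *Atg5*-/- AT2-PBS replicate 3 was below both BLM groups. The log2 fold change was 3.49 with BLM (standard error 0.84, adjusted p = 0.0163 from limma) and 4.76 with *Atg5* loss and PBS (standard error 0.84, adjusted p = 0.00205 from limma). *Usp18*, the protease that removes ISG15 and dampens the interferon receptor, measured 2.18, 1.56 and 1.19 FPKM in AT2-PBS, 33.6, 30.4 and 20.3 in AT2-BLM, 58.5, 79.6 and 8.20 in *Atg5*-/- AT2-PBS and 19.3, 9.85 and 15.3 in *Atg5*-/- AT2-BLM. Its 4 ranges put AT2-PBS lowest, and *Atg5*-/- AT2-BLM lay wholly below AT2-BLM, a difference that was not called (log2 fold change -0.90, adjusted p = 0.738 from limma). With BLM it rose by 3.45 (adjusted p = 0.00432 from limma) and with *Atg5* loss and PBS by 3.76 (adjusted p = 0.00129 from limma).

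*Trim25*, a ubiquitin and ISG15 ligase that activates RIG-I, had another pattern. It measured 4.71, 6.27 and 3.90 FPKM in AT2-PBS, 5.98, 5.20 and 5.31 in AT2-BLM, 12.8, 15 and 9.97 in *Atg5*-/- AT2-PBS and 6.14, 4.78 and 3.85 in *Atg5*-/- AT2-BLM. *Atg5*-/- AT2-PBS was above all 9 other samples, replicate 3 included, and the other 3 ranges overlapped. Its log2 fold change was 0.14 with BLM (not called), 1.19 with *Atg5* loss and PBS (standard error 0.21, adjusted p = 0.00206 from limma) and -1.20 with BLM in *Atg5*-/- AT2 cells (standard error 0.21, adjusted p = 0.00388 from limma).

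The IFIT proteins bind viral RNA and block its translation. *Ifit1* measured 0.462, 0.062 and 0.191 FPKM in AT2-PBS, 9.29, 5.34 and 4.68 in AT2-BLM, 15.9, 37.8 and 1.68 in *Atg5*-/- AT2-PBS and 2.24, 1.75 and 2.78 in *Atg5*-/- AT2-BLM. *Ifit3* measured 0.551, 0.512 and 0.227 FPKM in AT2-PBS, 4.58, 3.13 and 4.74 in AT2-BLM, 22.7, 42.0 and 1.16 in *Atg5*-/- AT2-PBS and 1.16, 1.37 and 1.21 in *Atg5*-/- AT2-BLM. For both genes the *Atg5*-/- AT2-BLM samples sat between AT2-PBS and AT2-BLM without overlap with either, close to *Atg5*-/- AT2-PBS replicate 3. With BLM the log2 fold change was 2.55 for *Ifit1* (adjusted p = 0.028 from limma) and 1.84 for *Ifit3* (adjusted p = 0.12 from limma). With *Atg5* loss and PBS it was 3.30 and 3.19 (adjusted p = 0.00695 and 0.0171 from limma). In *Atg5*-/- AT2 cells both were called lower with BLM, by -1.90 and -2.54 (adjusted p = 0.126 and 0.0676 from limma). Adding the copy *Ifit3b* to *Ifit3* gave sums of 0.318 to 0.760 FPKM in AT2-PBS, 3.93 to 7.27 FPKM in AT2-BLM, 1.43 to 59.3 FPKM in *Atg5*-/- AT2-PBS and 1.38 to 1.99 FPKM in *Atg5*-/- AT2-BLM, so the order of the groups was that of *Ifit3* alone. *Ifit2* was low, listed at 0.161, 0 and 0 FPKM in AT2-PBS and 1.06, 0.369 and 0.477 in AT2-BLM. It measured 2.71, 7.83 and 0.606 FPKM in *Atg5*-/- AT2-PBS and 0.304, 0.164 and 0.301 in *Atg5*-/- AT2-BLM. These last groups did not overlap (log2 fold change -1.58, adjusted p = 0.0479 from limma). *Ifit2* passed the filter for testing mainly through *Atg5*-/- AT2-PBS, so this fall is not independent of the filter.

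The OAS enzymes make a second messenger that activates RNase L, and the OAS-like proteins lack or modify that activity. *Oasl2* measured 2.08, 0.904 and 0.146 FPKM in AT2-PBS, 23.6, 16.5 and 4.84 in AT2-BLM, 60.8, 58.8 and 3.85 in *Atg5*-/- AT2-PBS and 16.1, 4.75 and 7.40 in *Atg5*-/- AT2-BLM. All 9 samples outside AT2-PBS were above it, with a log2 fold change of 2.85 with BLM (adjusted p = 0.0431 from limma) and 3.79 with *Atg5* loss and PBS (adjusted p = 0.0121 from limma). *Oasl1*, which restrains the translation of *Irf7* mRNA, had listed values of 0.479, 0 and 0.160 FPKM in AT2-PBS, and measured 6.63, 2.90 and 1.94 FPKM in AT2-BLM, 15.3, 34.7 and 1.70 in *Atg5*-/- AT2-PBS and 1.77, 0.534 and 1.91 in *Atg5*-/- AT2-BLM. The *Atg5*-/- AT2-BLM samples were below AT2-BLM without overlap, and the fall with BLM in *Atg5*-/- AT2 cells was -2.33 (adjusted p = 0.0683 from limma).

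*Oas1a* had listed values of 0.326, 0.426 and 0 FPKM in AT2-PBS and measured 6.97, 4.74 and 2.13 FPKM in AT2-BLM, 10.8, 14.4 and 2.76 in *Atg5*-/- AT2-PBS and 4.58, 1.57 and 0.885 in *Atg5*-/- AT2-BLM. It was called in 3 of the 4 pairwise comparisons, with log2 fold changes of 2.08, 2.83 and -1.55 for BLM, *Atg5* loss with PBS and BLM in *Atg5*-/- AT2 cells (adjusted p = 0.0208, 0.00316 and 0.0987 from limma). Its sums with the copy *Oas1g* ran from 0 to 0.450 FPKM in AT2-PBS and from 2.81 to 9.66 FPKM in AT2-BLM, and did not overlap. *Oas3* and *Oas2* were under the filter for testing. *Oas3* had listed values of 0.00546, 0 and 0.0118 FPKM in AT2-PBS, 0.659, 0.589 and 0.806 in AT2-BLM, 1.77, 1.94 and 0.341 in *Atg5*-/- AT2-PBS and 0.247, 0.296 and 0.389 in *Atg5*-/- AT2-BLM, with all 9 values above those of AT2-PBS. *Oas2* was listed at 0 in AT2-PBS replicates 2 and 3 and in *Atg5*-/- AT2-PBS replicate 3, at 1.96 and 1.38 FPKM in replicates 1 and 2 of that group, and at most at 0.227 FPKM in the other samples.

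**Figure D4:**
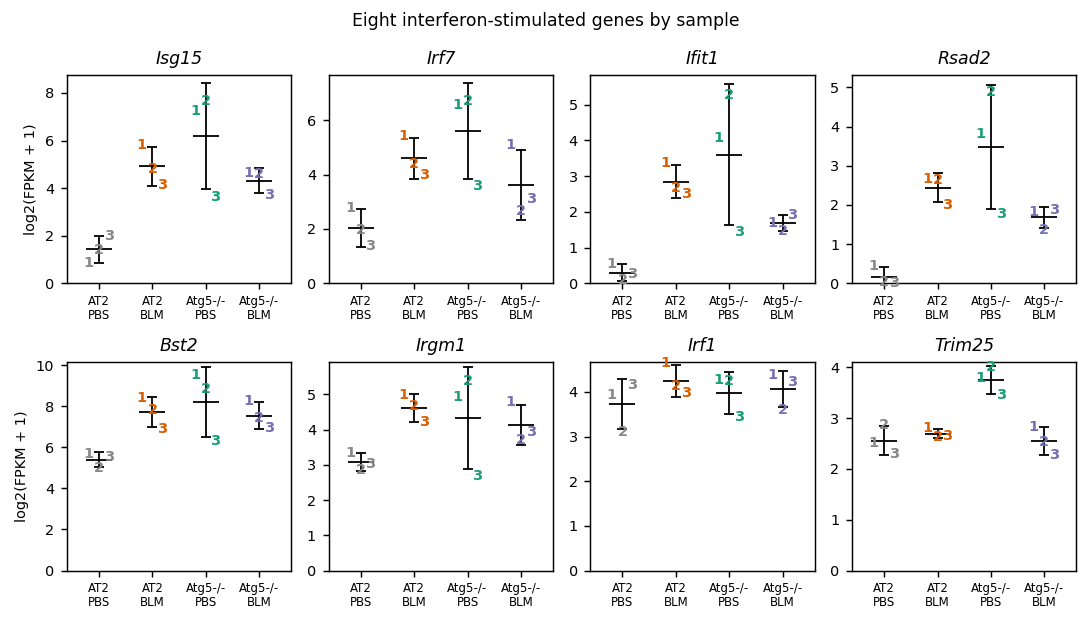
Log2(FPKM + 1) of 8 ISGs by group, with each digit marking the value of the replicate of that number and each bar the mean and SD of 3 samples. *Isg15*, *Irf7*, *Ifit1*, *Rsad2*, *Bst2* and *Irgm1* have replicate 3 far below replicates 1 and 2 in *Atg5*-/- AT2-PBS, *Irf1* overlaps in all groups, and *Trim25* is highest in all 3 *Atg5*-/- AT2-PBS samples.

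The GTPases of the GBP and IRG families attack the membranes of vacuoles that hold microbes, and *Irgm1* also acts in autophagy. All 7 were called higher with BLM (20.6% of all genes) and with *Atg5* loss and PBS (14.1%), and 1 of them, *Ifi47*, was called lower with BLM in *Atg5*-/- AT2 cells, near the share of all genes (10.7%). *Gbp2* measured 1.30, 0.645 and 1.42 FPKM in AT2-PBS, 8.23, 10.6 and 10.4 in AT2-BLM, 10.8, 22.7 and 2.06 in *Atg5*-/- AT2-PBS and 3.38, 7.24 and 5.33 in *Atg5*-/- AT2-BLM. AT2-BLM lay above AT2-PBS and above *Atg5*-/- AT2-BLM without overlap, and the rise with BLM was 2.35 (adjusted p = 0.015 from limma, standard error 0.55), the only one of the 7 to pass the adjustment. With *Atg5* loss and PBS it rose by 2.19 (adjusted p = 0.0206 from limma). *Gbp3* measured 0.650, 0.0537 and 0.0526 FPKM in AT2-PBS, 4.41, 3.26 and 1.61 in AT2-BLM, 8, 13.8 and 0.888 in *Atg5*-/- AT2-PBS and 2.88, 1.63 and 2.32 in *Atg5*-/- AT2-BLM, so AT2-PBS was below all others.

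Among the IRG GTPases, *Irgm1* had the highest mean in AT2-PBS, with a range that overlapped that of *Igtp*. It measured 9.18, 6.19 and 7.07 FPKM in AT2-PBS, 30.7, 24.5 and 17.4 in AT2-BLM, 29.3, 40.7 and 5.37 in *Atg5*-/- AT2-PBS and 26.3, 12.1 and 14.2 in *Atg5*-/- AT2-BLM. Both BLM groups were above AT2-PBS, while *Atg5*-/- AT2-PBS replicate 3 was below all 3 AT2-PBS samples, and the rise with BLM was 1.55 (adjusted p = 0.0718 from limma). *Ifi47* measured 3.65, 0.952 and 2.88 FPKM in AT2-PBS, 12.6, 7.26 and 4.77 in AT2-BLM, 24.7, 34.7 and 4.29 in *Atg5*-/- AT2-PBS and 8.72, 4.25 and 4.08 in *Atg5*-/- AT2-BLM. No other group overlapped AT2-PBS, and its rise with *Atg5* loss and PBS was 2.37 (adjusted p = 0.0243 from limma). *Iigp1* measured 0.780, 0.345 and 0.0508 FPKM in AT2-PBS, 3.31, 2.86 and 1.78 in AT2-BLM, 6.54, 8.72 and 0.811 in *Atg5*-/- AT2-PBS and 3.24, 1.56 and 2.15 in *Atg5*-/- AT2-BLM, again with no overlap with AT2-PBS. *Igtp* ran from 3.74 to 7.96 FPKM in AT2-PBS and from 10.4 to 24.1 FPKM in AT2-BLM, and *Irgm2* from 0.397 to 4.28 FPKM and from 5.02 to 11.2 FPKM.

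The sensors of foreign RNA and DNA were higher in the same groups. *Dhx58* (LGP2), a regulator of the RNA sensors, measured 0.678, 0.791 and 0.906 FPKM in AT2-PBS, 6.06, 8.44 and 2.92 in AT2-BLM, 15.7, 19.7 and 2.99 in *Atg5*-/- AT2-PBS and 5.38, 4.14 and 2.48 in *Atg5*-/- AT2-BLM. *Zbp1*, a sensor of Z-form nucleic acid that can trigger necroptosis, measured 0.580, 0.313 and 0.330 FPKM in AT2-PBS, 5.41, 4.67 and 2.35 in AT2-BLM, 17.1, 19.0 and 2.02 in *Atg5*-/- AT2-PBS and 3.45, 4.01 and 3.13 in *Atg5*-/- AT2-BLM. Both genes separated AT2-PBS from each other sample. With BLM they rose by 1.84 and 1.82 (adjusted p = 0.0322 and 0.0431 from limma) and with *Atg5* loss and PBS by 2.64 and 2.88 (adjusted p = 0.00454 and 0.00402 from limma). The RNA helicases *Ifih1* (MDA5) and *Ddx58* (RIG-I) had smaller rises, of 0.86 and 0.97 with BLM and 1.08 and 1.15 with *Atg5* loss and PBS. All 4 were called, with adjusted p = 0.0639 and 0.0869 for BLM and 0.0332 and 0.0698 for *Atg5* loss and PBS from limma. *Ifih1* was tight in AT2-BLM, at 5.47 to 5.81 FPKM, against 2.42 to 3.03 FPKM in AT2-PBS. *Eif2ak2* (PKR), the kinase that stops translation on double-stranded RNA, was at 1.30 to 1.62 FPKM in AT2-BLM and 0.975 to 1.43 FPKM in AT2-PBS, which overlap, and its log2 fold change of 0.14 was not called. It was called higher with *Atg5* loss and PBS (0.82) and lower with BLM in *Atg5*-/- AT2 cells (-0.61), with adjusted p = 0.087 and 0.223 from limma.

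Of the other effectors, *Bst2* had the highest level of any ISG in each group. *Bst2* (tetherin), which holds budding virus on the cell surface, measured 50.8, 30.7 and 45.5 FPKM in AT2-PBS, 340, 228 and 120 in AT2-BLM, 743, 453 and 77.9 in *Atg5*-/- AT2-PBS and 303, 170 and 122 in *Atg5*-/- AT2-BLM. All 9 samples were above AT2-PBS, with rises of 2.32 with BLM (adjusted p = 0.0359 from limma) and 2.81 with *Atg5* loss and PBS (adjusted p = 0.0156 from limma). *Rsad2* (viperin), a radical enzyme that makes a chain-ending nucleotide, and its neighbour *Cmpk2*, a nucleotide kinase that feeds it, moved in parallel. *Rsad2* had listed values of 0.366, 0.0253 and 0 FPKM in AT2-PBS, and measured 5.34, 5.22 and 3.02 FPKM in AT2-BLM, 13.1, 28.4 and 2.39 in *Atg5*-/- AT2-PBS and 2.51, 1.58 and 2.65 in *Atg5*-/- AT2-BLM. *Cmpk2* measured 1.92, 1.84 and 1.44 FPKM in AT2-PBS, 12.8, 8.90 and 7.47 in AT2-BLM, 19.3, 29.8 and 7.92 in *Atg5*-/- AT2-PBS and 9.58, 4.35 and 7.11 in *Atg5*-/- AT2-BLM. AT2-PBS was lowest for both, and for *Rsad2* the BLM groups did not overlap each other. *Rsad2* rose by 2.27 with BLM and 3.32 with *Atg5* loss and PBS (adjusted p = 0.02 and 0.00182 from limma), and *Cmpk2* by 1.95 and 2.70 (adjusted p = 0.00749 and 0.000534 from limma).

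*Samhd1*, which depletes nucleotides, and *Ifi35* were both called higher with BLM and with *Atg5* loss and PBS. *Samhd1* ran from 2.46 to 5.72 FPKM in AT2-PBS, from 10.2 to 11.8 FPKM in AT2-BLM, from 9.90 to 20 FPKM in *Atg5*-/- AT2-PBS and from 8.54 to 10.6 FPKM in *Atg5*-/- AT2-BLM. *Ifi35* ran from 16.8 to 21.7, from 37 to 49.9, from 26.1 to 80.4 and from 28.7 to 33.1 FPKM in the same groups. Their rises with BLM were 1.23 and 1.13 (adjusted p = 0.0112 and 0.0375 from limma), and both groups of *Atg5*-/- AT2 cells were above AT2-PBS without overlap.

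*Xaf1*, which promotes cell death, measured 0.692, 0.423 and 0.777 FPKM in AT2-PBS, 5.23, 3.37 and 1.47 in AT2-BLM, 10.6, 10.2 and 1.28 in *Atg5*-/- AT2-PBS and 2.89, 1.85 and 1.69 in *Atg5*-/- AT2-BLM, with AT2-PBS below all others. *Ifi44* measured 0.150, 0.303 and 0.0745 FPKM in AT2-PBS, 3.37, 1.86 and 0.618 in AT2-BLM, 8.51, 5.85 and 0.0459 in *Atg5*-/- AT2-PBS and 1.23, 0.430 and 0.548 in *Atg5*-/- AT2-BLM. Replicate 3 of *Atg5*-/- AT2-PBS was below each AT2-PBS sample for this gene, and the difference with BLM (1.22) was not called. *Parp14*, an ADP-ribosyltransferase, stayed between 0.227 and 2.86 FPKM in all samples and was called with *Atg5* loss and PBS alone (0.73, adjusted p = 0.194 from limma).

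The order of levels differed between groups. Ordered by mean FPKM, which is scaled for length, *Bst2* (42.4 ± 10.4, SD, n = 3), *Ifi35* (18.8 ± 2.53), *Irf1* (12.8 ± 4.74) and *Irgm1* (7.48 ± 1.54) led in AT2-PBS. The range of *Bst2* did not overlap that of *Ifi35*, and the range of *Ifi35*, from 16.8 FPKM, lay just above that of *Irf1*, up to 16.7 FPKM. *Isg15*, at 1.81 ± 1.05 FPKM in AT2-PBS, was the second highest in *Atg5*-/- AT2-PBS (121 ± 98.6) and the third in AT2-BLM (32.7 ± 19.6) and *Atg5*-/- AT2-BLM (19.8 ± 6.68).

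Averaged over the 35 ISGs, log2(FPKM + 1) was 1.67, 1.34 and 1.37 in AT2-PBS replicates 1 to 3, 3.36, 3.03 and 2.60 in AT2-BLM, 4.16, 4.47 and 2.19 in *Atg5*-/- AT2-PBS and 2.90, 2.32 and 2.42 in *Atg5*-/- AT2-BLM. *Atg5*-/- AT2-PBS replicate 3 was above the 3 AT2-PBS samples and below the 6 BLM samples in this mean, and both BLM groups were above AT2-PBS. For 15 leukocyte and macrophage markers together, the same mean was 2.01, 0.85 and 0.98 in AT2-PBS, 1.92, 2.69 and 1.99 in AT2-BLM, 5.21, 5.13 and 5.18 in *Atg5*-/- AT2-PBS and 1.88, 3.12 and 3.30 in *Atg5*-/- AT2-BLM.

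**Figure D5:**
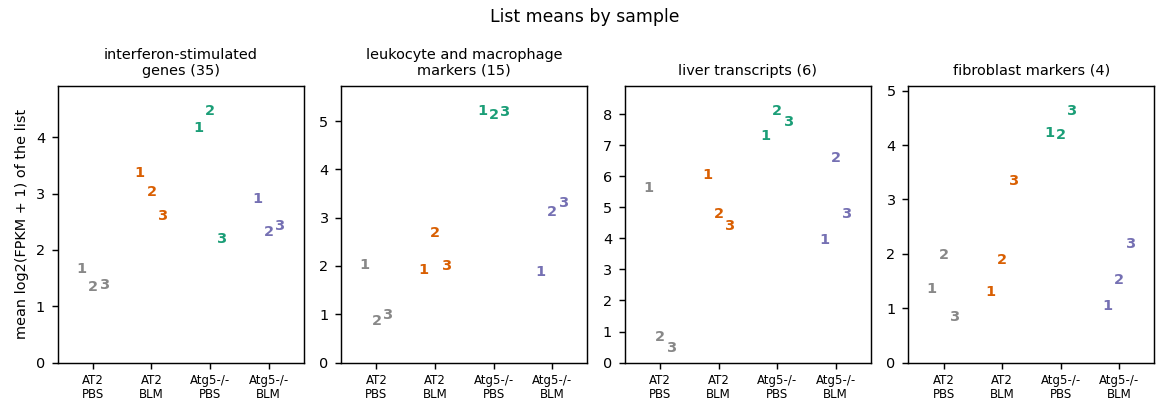
Mean log2(FPKM + 1) of 4 gene lists by group, with each digit marking the replicate of that number. The ISGs split *Atg5*-/- AT2-PBS into replicates 1 and 2 (4.16 and 4.47) and replicate 3 (2.19), whereas leukocyte and macrophage markers are at 5.13 to 5.21 in all 3, and liver transcripts and fibroblast markers are also high in all 3.

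The genes that make, receive and relay the interferon signal were called in part. Of 23 tested genes of a list of receptors, JAK-STAT components, sensors' adaptors and interferon regulatory factors, 7 were called higher and 0 lower with BLM, 7 higher and 1 lower with *Atg5* loss and PBS, 6 higher and 5 lower with BLM in *Atg5*-/- AT2 cells, and 0 higher and 1 lower with *Atg5* loss during BLM. Of all genes, 28.4%, 19.3%, 18.4% and 5.16% were called in these comparisons. The shares of the list called with BLM (30.4%) and with *Atg5* loss during BLM (4.35%) were near this background. Those with *Atg5* loss and PBS (34.8%) and with BLM in *Atg5*-/- AT2 cells (47.8%) were above it. Among the ligands, *Ifna2*, *Ifna4*, *Ifne*, *Ifnl2* and *Ifnl3* were listed at 0 in the 12 samples and *Ifnb1* in 11 of 12, which at unknown depth does not show that they are absent. *Ifng*, the product of T and natural killer cells, measured 1.44, 0.572 and 0.797 FPKM in *Atg5*-/- AT2-PBS, and no other sample was above 0.566 FPKM. The type I receptor gene *Ifnar1* stayed between 2.71 and 5.73 FPKM and *Ifnar2* between 7.77 and 17.0 FPKM, and neither was called in any comparison.

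Among the signalling genes, *Socs1*, a feedback inhibitor, was lower in replicate 3 of *Atg5*-/- AT2-PBS, where it measured 9.54, 9.51 and 2.90 FPKM. *Irf8* and *Irf5*, factors of myeloid cells, had no such split, at 14.4, 10.6 and 11.3 FPKM and 6.63, 9.63 and 8.05 FPKM in that group, and rose there by 3.27 and 2.73 over AT2-PBS.

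Of the other genes of the list, *Socs3*, *Ifngr2* and *Tmem173* were called higher with BLM in both genotypes. *Socs3* rose by 1.60 in AT2 cells and by 1.29 in *Atg5*-/- AT2 cells (adjusted p = 0.00333 and 0.0108 from limma), and *Ifngr2*, a chain of the interferon gamma receptor, by 1.44 and 0.72 (adjusted p = 0.000871 and 0.0246 from limma). *Tmem173* (STING), the adaptor of cytosolic DNA sensing, rose by 1.38 and 0.78 (adjusted p = 0.00836 and 0.121 from limma). *Ifngr2* was the 1 gene of the list called lower with *Atg5* loss during BLM, by -0.57 (adjusted p = 0.607 from limma). *Ifngr1*, the other chain, was called higher with *Atg5* loss and PBS (0.77) and lower with BLM in *Atg5*-/- AT2 cells (-0.66), with adjusted p = 0.0403 and 0.0908 from limma. *Tlr3*, which senses RNA in endosomes, was called higher with BLM (0.71) and with *Atg5* loss and PBS (0.64), with adjusted p = 0.0712 and 0.149 from limma. Its adaptor *Ticam1* was called lower in the latter (-0.52, adjusted p = 0.177 from limma). It was called higher with BLM in *Atg5*-/- AT2 cells (0.92, adjusted p = 0.0212 from limma). In that comparison *Ifnlr1*, the type III receptor, and the kinase gene *Tbk1* were called higher as well, by 0.63 and 0.60 (adjusted p = 0.141 and 0.115 from limma).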

How the data were processed

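Gene-level FPKM values for 12 samples were used as deposited. According to the methods, stranded mRNA reads were mapped by the authors to mm9 (STAR) and FPKM came from Cufflinks, and DESeq is named for normalization without saying whether the deposited FPKM include it. The submitters' processing notes list Trimmomatic 0.36, HISAT2 2.2.1.0, Cufflinks 2.2.1 and HTSeq 0.9.1 instead of STAR. FPKM summed to between 390141 and 549169 per sample, the absolute depth is unknown, and no counting interval is given. Genes entered the fit if 3 or more samples reached 1 FPKM (10675). Group means of log2(FPKM + 1) over 12 samples were fitted by limma 3.58.1 under R 4.3.3 (lmFit, and eBayes with trend), and p was adjusted by Benjamini-Hochberg over all tested genes. The fit was tested on simulated data. Pearson correlations within groups were between 0.938 and 0.987. Groups and replicate numbers came from sample titles, and the description of AT2-PBS replicate 3 holds a different number. Alternatives were another pseudocount, no low-value filter, quantile and median-ratio scaling, fits of the compared groups alone, a replicate block, no trend, adjusted p, a fold of at least 2 and each sample left out.

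The ISGs and the other lists were chosen with earlier results of these data known. Genes given with values in each sample are the 20 with the largest called change in a pairwise comparison, plus *Stat2*, *Irf9*, *Irf7*, *Irf1*, *Isg15* and the untested *Oas2* and *Oas3*. The values of *Trim25* and *Irgm1* in each sample are outside this rule and were chosen after they were seen. Pathway genes are named where called or listed at 0 in all samples, except 1 called gene that is not reported here, and *Ifnar1*, *Ifnar2*, *Ifnb1* and *Ifng* were added after their values were seen. Positions in mm9 are from the GENCODE annotation (NCBIM37). Plots used matplotlib 3.10.9 (Python 3.11.15).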

Additional observations from a re-analysis of the deposited data

Results flagged for a closer look

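Limma's interaction term had an adjusted p (Benjamini-Hochberg) under 0.05 for 15 ISGs. The difference, BLM effect in *Atg5*-/- AT2 minus BLM effect in AT2 on the log2 scale, was -5.36 for *Isg15* and -4.66 for *Usp18* in the ISG15 system, and -4.55 for *Irf7*. It was -4.45 for *Ifit1*, -4.38 for *Ifit3*, -4.22 for *Oasl1*, -4.08 for *Rsad2* and -3.63 for *Oas1a*. Further genes were *Cmpk2* (-3.15), *Dhx58* (-3.03), *Zbp1* (-3.01) and *Gbp2* (-2.99), and the smallest differences of the 15 were those of *Ifi35* (-1.96), *Samhd1* (-1.77) and *Trim25* (-1.34). The adjusted p ran from 0.00552 for *Cmpk2* to 0.0373 for *Zbp1*. These values use the *Atg5*-/- AT2-PBS samples, of which replicate 3 was lowest for each of the 15. All 8 leukocyte markers had a called negative difference as well, and their part in the differences of the ISGs was not tested.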

How the results depend on the processing

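The count of called ISGs with BLM was 15 with adjusted p, and 16 (without AT2-BLM replicate 1) to 26 with each sample left out. BLM in *Atg5*-/- AT2 cells gave 2 with adjusted p, 8 with only the compared groups fitted and 4 to 31 with each sample left out, the lowest and highest without *Atg5*-/- AT2-PBS replicates 2 and 3. *Atg5* loss during BLM gave 6 with only the compared groups, and 0 to 1 with each sample left out, the 1 without *Atg5*-/- AT2-BLM replicate 1. The interaction gave 15 with adjusted p. The other counts, those of *Atg5* loss with PBS included, were within 1.5 times the reported one, and no call had the opposite direction. The replicate numbers were not used to pair the samples. Correlations of deviations from the group means between same-numbered samples ran from -0.239 to 0.227. With 3 samples a group, they cannot tell whether the samples were paired. With the number as a replicate block the counts were 28, 20 and 32 for BLM, BLM in *Atg5*-/- AT2 cells and *Atg5* loss with PBS. They were 1 and 30 for *Atg5* loss during BLM and the interaction. Some log2 fold changes that were not called changed sign, and the cause was not tested. *Trim25* with BLM was -0.03 with quantile normalization and -0.01 with median-ratio scaling. With each sample left out, *Atg5* loss during BLM ran from -0.67 to 0.18 for *Stat2*, -0.34 to 0.05 for *Irf1*, -0.34 to 0.02 for *Iigp1*, -0.35 to 0.00 for *Ifih1*, -0.36 to 0.08 for *Ddx58*, -0.42 to 0.05 for *Zbp1*, -0.03 to 0.22 for *Eif2ak2* and -0.59 to 0.16 for *Bst2*. BLM in *Atg5*-/- AT2 cells ran from -0.19 to 0.32 for *Irf1*, -1.46 to 0.02 for *Gbp2* and -1.01 to 0.34 for *Irgm1*, and *Atg5* loss with PBS from -0.06 to 0.52 for *Irf1*.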

Other observations

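Relatives of the ISGs were found by symbol and chosen after their values were seen. Of 11 tested, 11 were called higher with *Atg5* loss and PBS, 2 higher with BLM, 8 lower with BLM in *Atg5*-/- AT2 cells and 1 higher with *Atg5* loss during BLM. Of all genes, 14.1% and 20.6% were called higher in the first 2 of these comparisons and 10.7% lower in the next, so the count with BLM was near the background. In the last, 5.16% of all genes were called in either direction. Some relatives passed the filter for testing mainly through *Atg5*-/- AT2-PBS. *Ifit1bl1* did so through replicates 1 and 2 of that group (1.42 and 3.18 FPKM) and AT2-BLM replicate 3 (1.19 FPKM). The counts that use *Atg5*-/- AT2-PBS are therefore not independent of the filter. *Ifitm3*, which blocks the fusion of viruses in endosomes, measured 33.1, 30.0 and 16.4 FPKM in AT2-PBS, 223, 150 and 81.3 in AT2-BLM, 925, 830 and 148 in *Atg5*-/- AT2-PBS and 111, 118 and 63.5 in *Atg5*-/- AT2-BLM. No group overlapped AT2-PBS, and *Atg5*-/- AT2-PBS replicate 3 was again the lowest of its group. Its log2 fold change was 4.20 with *Atg5* loss and PBS (adjusted p = 0.000534 from limma) and 2.41 with BLM (adjusted p = 0.0199 from limma). *Ifitm1* measured 25.6, 34.2 and 9.95 FPKM in *Atg5*-/- AT2-PBS and 2.04, 3.67 and 21.6 in *Atg5*-/- AT2-BLM, where replicate 3 was the highest.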
